A study of Mus musculus with 8 samples.

Results

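Haemoglobin and platelet genes were described in 8 libraries of total RNA from thymic lymphomas of C57BL/6 mice, as quantile-normalised FPKM, the fragments of a transcript scaled by its length and by library size. The set names 7 genes: the adult beta globins Hbb-b1 and Hbb-b2, the adult alpha globin Hba-a1, the erythroid haem enzyme Alas2, the platelet chemokines Pf4 and Ppbp, and the platelet integrin Itga2b. An entry was found for 6 of the 7, of 13681 symbols in the table; Itga2b was not analysed here. The genes were named with results of these data known, and where a symbol had several entries, the entry was chosen by its mean FPKM over the 8 libraries. Only Alas2 had more than 1 entry, with 2.

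All mice lacked p53 (p53-/-) and were 10 weeks old, and the tissue was taken 48 hours after an adenovirus was injected into the lymphoma. The 2 control libraries carried ΔNfl/fl;p53-/- and received Ad-mCherry, a virus that carries a red fluorescent protein alone. The other groups received Ad-CRE-mCherry, which adds Cre recombinase, and were 3 libraries of the genotype ΔNp63Δ/Δ;p53-/- and, with the same virus, 3 of ΔNp73Δ/Δ;p53-/-. They are called the ΔNp63Δ/Δ and ΔNp73Δ/Δ libraries after their labels, with replicates numbered in label order. ΔNp63 and ΔNp73 are the short forms of the p53 relatives p63 and p73. The control label does not say which gene is floxed, and the control animals had another virus and another genotype than the rest, so the effects of virus and genotype cannot be told apart. The labels name no batch, pair or sex, and nothing in them says that the libraries of a group are separate animals. The p-values therefore measure only the spread between libraries, which may be technical.

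Haemoglobin is built from alpha and beta globin chains, each holding a haem group, and Alas2 makes the haem precursor in red cell precursors. Adult mice have a pair of alpha globin genes and a pair of adult beta globin genes, and inbred strains differ in the haplotype of the beta locus. Red cells that have lost their nucleus still hold globin RNA for a time, so a tissue that contains blood shows it. Platelets are fragments of megakaryocytes; Pf4 and Ppbp are chemokines of their alpha granules, and Itga2b forms the fibrinogen receptor with Itgb3. In bulk tissue, fewer cells of a type and less RNA per cell cannot be told apart.

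Hba-a1 and Hba-a2 are near copies of each other, and so are the entries called Hbb-b1 and Beta-s, which bears on the globin values below. The sequence of the entry called Hbb-b2 was not compared, so its likeness to the other entries was not measured. In the annotation of GRCm38, the coding sequences of Hba-a1 and Hba-a2 (chromosome 11) are 429 bases long and differ at 1 base, C381T, counted from 1 at the start codon with the base of Hba-a1 given before the position. The entry that the table calls Hbb-b1 is listed by RefSeq under Hbb-bt (chromosome 7), and the entry called Beta-s under Hbb-bs. Their coding sequences are 444 bases long and also differ at 1 base, T417C, with the base of Hbb-bt given before the position. The stretches around these positions, from the GENCODE transcripts and in the direction of the coding strand, are shown because they hold the only coding difference within each pair. The differing base is in capitals.

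Hba-a1, coding bases 351 to 407: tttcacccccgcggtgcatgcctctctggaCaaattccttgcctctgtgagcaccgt
Hba-a2, coding bases 351 to 407: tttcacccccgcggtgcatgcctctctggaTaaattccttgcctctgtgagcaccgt
Hbb-bt, coding bases 387 to 443: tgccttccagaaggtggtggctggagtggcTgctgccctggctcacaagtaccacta
Hbb-bs, coding bases 387 to 443: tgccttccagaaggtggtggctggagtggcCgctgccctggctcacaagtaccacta

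Of the 380 windows of 50 bases in the Hba-a1 coding sequence, 87.1% occur unchanged in Hba-a2. Of the 395 such windows in Hbb-bt, 92.9% occur unchanged in Hbb-bs. Over the whole transcripts, untranslated ends included, the shares were 67.5% and 58.3%. A stretch of 50 bases or fewer from such a window cannot be placed by its own sequence. The length and pairing of the reads were not set against these windows. How the deposited values divide reads that match both entries is not given in the sources used here. The level of a single globin entry is therefore uncertain, and the sums over entries are given beside it.

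The library ΔNp63Δ/Δ replicate 2 stood apart: its median Pearson r with the other libraries over 12921 genes was 0.847, against 0.915 to 0.956 for the remaining 7. Thymocyte markers, which fit the tissue label, were abundant, with Thy1 at 462 to 1479 FPKM and Rag1 at 51.9 to 965, the lowest Rag1 being that of ΔNp63Δ/Δ replicate 2. Summed over 14 markers, thymocyte RNA was at 4830 and 5607 FPKM in the control libraries, 3198, 1913 and 4158 in the ΔNp63Δ/Δ and 2216, 2848 and 3518 in the ΔNp73Δ/Δ libraries. Test results of the 6 genes and of the red cell, platelet, macrophage and neutrophil lists are given with and without ΔNp63Δ/Δ replicate 2, and those of the remaining lists over all libraries. FPKM are not counts, so the depth of the libraries is unknown and no detection limit is given.

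Hbb-b1, an adult beta globin, was at 26.0 and 136.1 FPKM in the control libraries. It was at 3.07, 0.0338 and 2.35 in the ΔNp63Δ/Δ libraries and at 32.5, 19.99 and 13.1 in the ΔNp73Δ/Δ libraries. All ΔNp63Δ/Δ libraries lay below every library of both other groups, while the ΔNp73Δ/Δ libraries overlapped the controls. The means were 81.1 ± 77.8 (SD, n = 2), 1.82 ± 1.59 (SD, n = 3) and 21.9 ± 9.83 (SD, n = 3) FPKM.

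Hbb-b2, a further adult beta globin entry, went the other way between the same groups. Mouse strains differ in their beta globin haplotype, which was not tested in these animals and limits what the level of a single beta globin entry shows. It was at 1.48 and 16.3 FPKM in the control libraries, at 84.9, 6.84 and 19.0 in the ΔNp63Δ/Δ libraries, and at 3.14e-05, 3.7e-05 and 2.43 in the ΔNp73Δ/Δ libraries. Every ΔNp63Δ/Δ library was above every ΔNp73Δ/Δ library, and the controls overlapped both groups. Of the FPKM of Hbb-b1 and Hbb-b2 together, Hbb-b1 held 94.6% and 89.3% in the control libraries, 3.49%, 0.492% and 10.99% in the ΔNp63Δ/Δ libraries, and at least 84.4% in the ΔNp73Δ/Δ libraries.

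Hba-a1, an adult alpha globin, was at 53.3 and 168 FPKM in the control libraries and at 561, 29.2 and 125 in the ΔNp63Δ/Δ libraries. In the ΔNp73Δ/Δ libraries it was at 44.8, 0.00731 and 0.0215. The range within that group is wide, with replicate 1 near the lower control and the other libraries close to 0. Its near copy Hba-a2, not among the named genes, was at 125, 111 and 128 FPKM in the same 3 libraries, so alpha globin RNA was present in each. Hba-a1 held 30.3% and 15.03% of the summed alpha globin FPKM in the control libraries, 82.0%, 49.6% and 57.7% in the ΔNp63Δ/Δ libraries and 26.5%, 0.00659% and 0.0168% in the ΔNp73Δ/Δ libraries. All ΔNp63Δ/Δ libraries had a higher share than any other library.

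**Figure D1:**
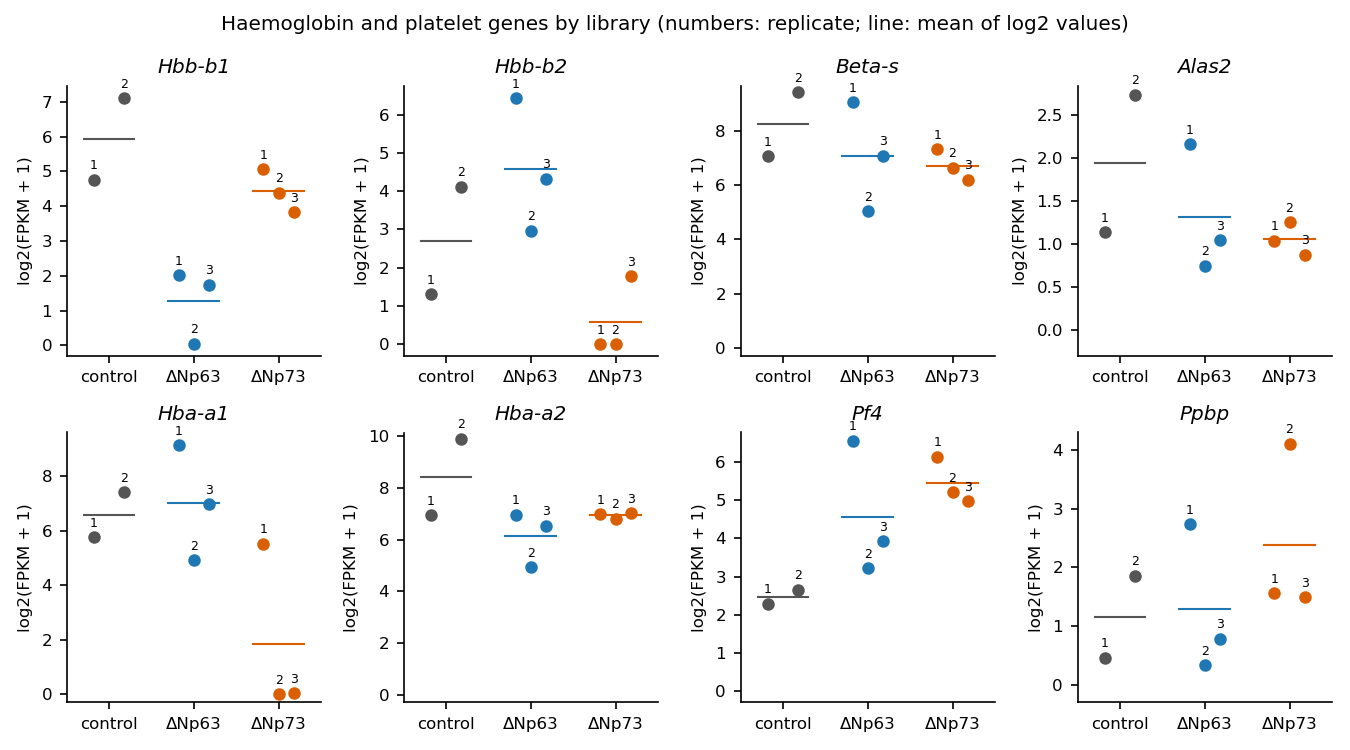
Level of the 6 named genes with an entry and of the further globin entries Beta-s and Hba-a2 in each of the 8 libraries, as log2(FPKM + 1); points are libraries with their replicate number, lines the group means. Hbb-b1 was lowest in the 3 ΔNp63Δ/Δ libraries, Hbb-b2 lower in the 3 ΔNp73Δ/Δ than in the 3 ΔNp63Δ/Δ libraries, and Pf4 lowest in the 2 controls.

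The beta globin with the highest level was Beta-s, also not among the named genes. It was at 133 and 689 FPKM in the control libraries, at 531, 31.5 and 135 in the ΔNp63Δ/Δ libraries and at 159, 98.2 and 72.1 in the ΔNp73Δ/Δ libraries. Its share of the summed adult beta globin FPKM stayed between 81.9% and 86.3% in all 8 libraries. The remaining share was held mostly by Hbb-b1 in the control libraries and ΔNp73Δ/Δ libraries, and mostly by Hbb-b2 in the ΔNp63Δ/Δ libraries. The embryonic alpha-like globin Hba-x was at 1.09 to 3.15 FPKM.

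**Figure D2:**
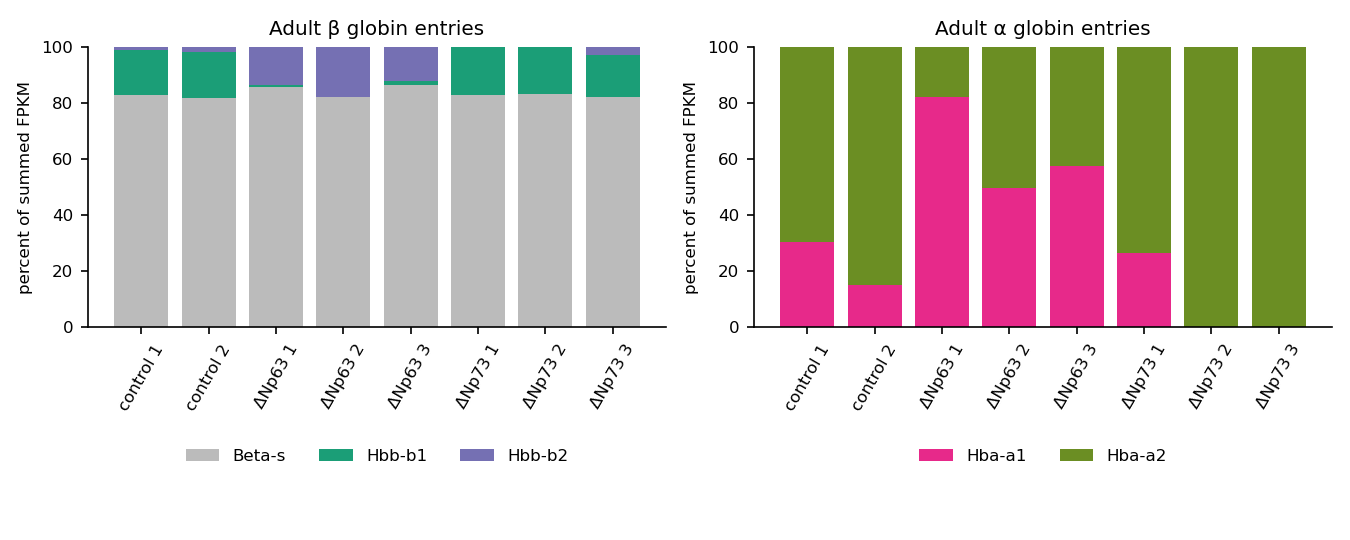
Share of each entry in the summed FPKM of the adult beta globins (left) and adult alpha globins (right), in percent, for each of the 8 libraries. Beta-s holds 81.9% to 86.3% of beta globin in every library, while the remainder is mostly Hbb-b2 in the 3 ΔNp63Δ/Δ libraries and mostly Hbb-b1 in the others.

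Summed over the 3 adult beta globin entries, the level was 161 and 841 FPKM in the control libraries, 619, 38.4 and 156 in the ΔNp63Δ/Δ libraries and 191, 118 and 87.7 in the ΔNp73Δ/Δ libraries. Summed over Hba-a1 and Hba-a2, alpha globin was at 176 and 1118 FPKM in the control libraries, 685, 58.9 and 216 in the ΔNp63Δ/Δ libraries and 169, 111 and 128 in the ΔNp73Δ/Δ libraries. The sums differed widely between libraries of the same group: control replicate 2 and ΔNp63Δ/Δ replicate 1 were highest, and ΔNp63Δ/Δ replicate 2 was lowest. The ratio of alpha to beta globin was 0.886 to 1.53 in all libraries. These sums were formed after the values were seen and are given without a p. On the log2(FPKM + 1) scale, the difference of the ΔNp63Δ/Δ group from control was -1.10 (SE 1.07) for alpha and -1.24 (SE 1.14) for beta globin, and without replicate 2 it was -0.20 and -0.24. For the ΔNp73Δ/Δ group it was -1.72 (SE 1.07) and -1.54 (SE 1.14). For alpha globin the highest ΔNp73Δ/Δ library (169.3 FPKM) lay just below the lower control (175.7 FPKM), and for beta globin the groups overlapped. Of all genes, 63.4% did not overlap in this comparison.

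Alas2, which starts haem synthesis in red cell precursors, was at 1.20 and 5.66 FPKM in the control libraries. It was at 3.45, 0.681 and 1.06 in the ΔNp63Δ/Δ and at 1.05, 1.38 and 0.834 in the ΔNp73Δ/Δ libraries. For this entry the groups overlapped, and the highest libraries were the 2 that were highest in summed globin. The second entry of Alas2 had the lower level in every library. It was at 0.929 and 2.11 FPKM in the control libraries. All other libraries lay below both controls, at 1.06e-05 to 0.680 FPKM. With both entries summed, the ΔNp73Δ/Δ libraries lay below both controls (log2 fold change -1.19, SE 0.54, limma adjusted p = 0.248), and the ΔNp63Δ/Δ libraries overlapped them. With 1 entry per symbol, 63.4% of all genes did not overlap in the ΔNp73Δ/Δ comparison and 30.3% in the ΔNp63Δ/Δ comparison.

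Pf4, a chemokine of platelet granules, was at 3.86 and 5.29 FPKM in the control libraries. It was at 93.4, 8.32 and 14.2 in the ΔNp63Δ/Δ libraries and at 69.5, 36.1 and 30.4 in the ΔNp73Δ/Δ libraries. Both controls lay below all 6 other libraries, and the ΔNp63Δ/Δ and ΔNp73Δ/Δ groups overlapped. The means were 4.58 ± 1.01 (SD, n = 2), 38.6 ± 47.5 (SD, n = 3) and 45.3 ± 21.1 (SD, n = 3) FPKM.

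Ppbp, which encodes a second granule chemokine and lies 2371 bases from Pf4 on chromosome 5, did not separate the groups. It was at 0.375 and 2.64 FPKM in the control libraries, 5.69, 0.261 and 0.721 in the ΔNp63Δ/Δ libraries and 1.96, 16.3 and 1.81 in the ΔNp73Δ/Δ libraries. The highest level was in ΔNp73Δ/Δ replicate 2, where Pf4 was at 36.1 FPKM, and Pf4 was above Ppbp in each of the 8 libraries.

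In length-scaled FPKM, averaged over all libraries of a group, the 6 genes ranked Hba-a1, Hbb-b1, Hbb-b2, Pf4, Alas2 and Ppbp in the control libraries. In the ΔNp63Δ/Δ group the order was Hba-a1, Pf4, Hbb-b2, Ppbp, Hbb-b1 and Alas2, and in the ΔNp73Δ/Δ group Pf4, Hbb-b1, Hba-a1, Ppbp, Alas2 and Hbb-b2. Neighbours in these orders differed by less than the larger SD of the pair, except Pf4 (45.3 ± 21.1) and Hbb-b1 (21.9 ± 9.83) in the ΔNp73Δ/Δ group. The orders are therefore mostly unresolved. In the control libraries Hba-a1 (110.6 ± 81.1) and Hbb-b1 (81.1 ± 77.8) differed by less than their SD over 2 libraries. In the ΔNp63Δ/Δ group, Pf4 (38.6 ± 47.5) and Hbb-b2 (36.9 ± 42.0) differed by less than their SD over 3 libraries, as did Ppbp (2.22 ± 3.01) and Hbb-b1 (1.82 ± 1.59). In the ΔNp73Δ/Δ group, Hbb-b1 (21.9 ± 9.83) and Hba-a1 (14.9 ± 25.9) differed by less than the SD of either, as did Hba-a1 and Ppbp (6.68 ± 8.32) by less than that of Hba-a1. The mean of Hba-a1 there rests on 1 library at 44.8 and that of Ppbp mostly on 1 at 16.3.

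Group differences were tested with limma on log2(FPKM + 1) over 12921 genes, with Benjamini-Hochberg adjustment and a threshold of 0.05; all 6 genes passed the filter on low values. Fold changes are on the log2(FPKM + 1) scale, which understates the change of low genes. In the ΔNp63Δ/Δ group against control, 0 of the 6 passed, where 0.0929% of all genes did. At an unadjusted p under 0.05 there were 2 of 6 (13% of all genes), and the groups did not overlap for 2 of 6 (30.3% of all genes). These were Hbb-b1 and Pf4. Hbb-b1 had a log2 fold change of -4.66 (SE 0.82, limma adjusted p = 0.158) and Pf4 of 2.10 (SE 0.90, adjusted p = 0.385). The remaining values were 1.86 for Hbb-b2, 0.43 for Hba-a1, 0.13 for Ppbp and -0.62 for Alas2, with limma adjusted p from 0.537 to 0.973.

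Without ΔNp63Δ/Δ replicate 2, 2 of the 6 genes passed in that comparison, where 22.5% of all genes did. Hbb-b1 fell (log2 fold change -4.04, SE 0.72, limma adjusted p = 0.00983) and Pf4 rose (2.78, SE 0.79, adjusted p = 0.0447). Hbb-b2 was then above both controls in the remaining libraries and did not pass (2.66, SE 1.09, adjusted p = 0.124). Single libraries moved these values: Pf4 was at 1.11 without ΔNp63Δ/Δ replicate 1 (limma adjusted p = 0.563), and Hbb-b2 ranged from 0.46 without control replicate 1 to 3.26 without control replicate 2.

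In the ΔNp73Δ/Δ group against control, 0 of the 6 passed, against 0.0542% of all genes. At an unadjusted p under 0.05 there were 2 of 6 (21.3% of all genes), and 2 of 6 did not overlap (63.4% of all genes), which is a smaller share than among all genes. These were Pf4, with a log2 fold change of 2.97 (SE 0.90, limma adjusted p = 0.139), and Hba-a1, with -4.73 (SE 1.86, adjusted p = 0.209). The remaining values were -2.12 for Hbb-b2, -1.50 for Hbb-b1, 1.23 for Ppbp and -0.88 for Alas2, with limma adjusted p from 0.326 to 0.500. Without ΔNp63Δ/Δ replicate 2, whose values count here only in the pooled error, Pf4 passed (adjusted p = 0.0201, with the same fold change) and Hba-a1 did not (adjusted p = 0.0685); 33% of all genes passed then. Hbb-b1 in this comparison ranged from -2.67 without control replicate 1 to -0.33 without control replicate 2. Both comparisons share the 2 control libraries.

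Between the ΔNp73Δ/Δ and ΔNp63Δ/Δ groups, which received the same virus, 0 of the 6 genes passed, against 0.0542% of all genes. At an unadjusted p under 0.05 there were 3 of 6 (10.5% of all genes), all of them globins, and 2 of 6 did not overlap (18.9% of all genes). Hbb-b1 was higher in every ΔNp73Δ/Δ library (log2 fold change 3.15, SE 0.73, limma adjusted p = 0.356) and Hbb-b2 lower in each (-3.98, SE 1.05, adjusted p = 0.421). Hba-a1 had a log2 fold change of -5.16 (SE 1.66, adjusted p = 0.439), with ΔNp73Δ/Δ replicate 1 inside the ΔNp63Δ/Δ range. Pf4 (0.87, SE 0.80), Ppbp (1.10, SE 0.90) and Alas2 (-0.26, SE 0.48) overlapped between the groups. Without ΔNp63Δ/Δ replicate 2, 0 of the 6 passed, against 0.149% of all genes, and the smallest limma adjusted p was 0.122, for Hbb-b2.

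**Figure D3:**
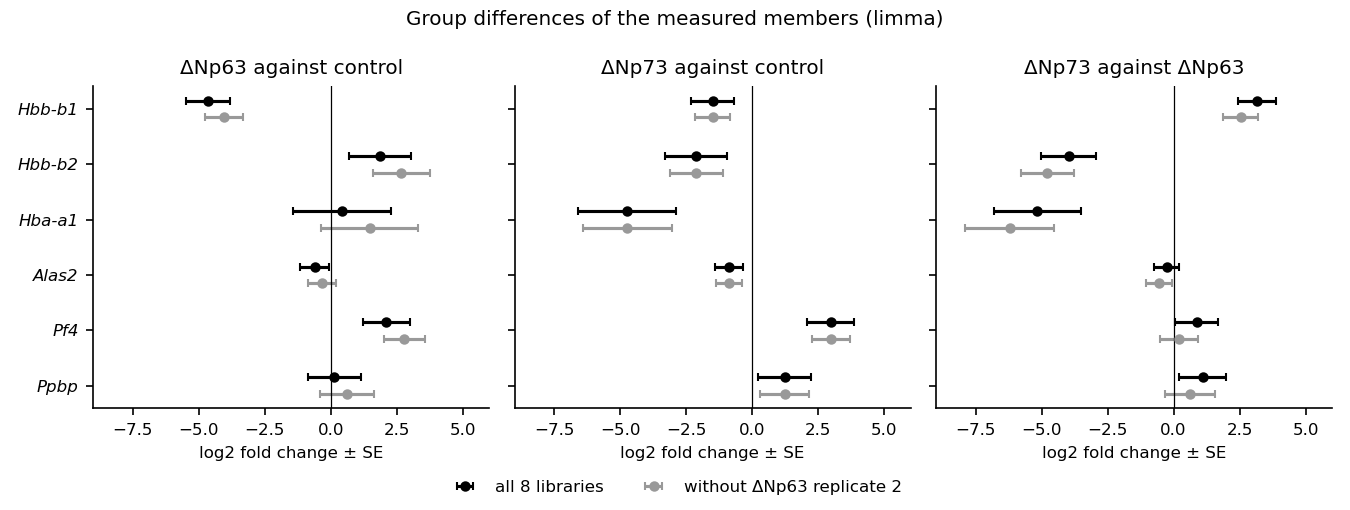
Log2 fold change on the log2(FPKM + 1) scale, with its standard error, of the 6 genes in 3 comparisons, over all 8 libraries (black) and without ΔNp63Δ/Δ replicate 2 (grey). Hbb-b1 sits at -4.66 and -4.04 in the ΔNp63Δ/Δ group against control, and Pf4 at 2.10 and 2.78; Hba-a1 has the widest errors.

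Across the 8 libraries, 15 pairs of the 6 genes were correlated on the log2(FPKM + 1) scale, with an exact permutation test over all orders of the libraries, two-sided, and Benjamini-Hochberg adjustment over the pairs. No pair passed by Pearson's r or Spearman's rho (0 of 15 by each). The smallest p was for Hbb-b2 with Hba-a1 (r = 0.71, exact permutation p = 0.0491, adjusted p = 0.593; rho = 0.71, exact permutation p = 0.0576, adjusted p = 0.520). Without the 2 libraries farthest from the median of Hbb-b2, that r was 0.78. Pf4 and Ppbp had r = 0.58 and rho = 0.62 (exact permutation p = 0.130 and 0.115, adjusted p = 0.593 and 0.567), and r = 0.39 without the 2 farthest libraries. Some pairs moved more. Hbb-b1 and Hbb-b2 had r = -0.36 (exact permutation p = 0.377, adjusted p = 0.808), and -0.92 without the 2 libraries farthest in Hbb-b1. Hba-a1 and Ppbp had r = -0.31 (exact permutation p = 0.469, adjusted p = 0.810), and 0.83 without the 2 farthest in Hba-a1. Values within a group could not be had, with 2 or 3 libraries each.

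With the globin entries summed, the relations looked different. These sums, with Alas2, Pf4 and Ppbp, gave 10 pairs that are described without a p because they were formed after the values were seen. Summed beta and alpha globin had r = 0.98 and rho = 0.88 over the 8 libraries. Alas2 had r = 0.92 with beta (rho = 0.79) and r = 0.94 with alpha globin (rho = 0.74). Pf4 had r = 0.13 with beta globin, 0.03 with alpha globin and -0.03 with Alas2. Without the 2 libraries farthest from the median of summed beta globin, r was 0.95 between beta and alpha globin and 0.92 between beta globin and Alas2. These were control replicate 2 and ΔNp63Δ/Δ replicate 2. For alpha globin and Alas2, r was 0.55 without the 2 farthest in summed alpha globin, control replicate 2 and ΔNp63Δ/Δ replicate 1. Different libraries were left out, so the value of 0.55 cannot be set directly against the 0.92. With ΔNp63Δ/Δ replicate 2 also left out, and then control replicate 2 and ΔNp63Δ/Δ replicate 1 as the farthest, these were 0.70, 0.33 and -0.19. The values of r with Alas2 therefore depended on the extreme libraries. Over the 7 libraries without ΔNp63Δ/Δ replicate 2, rho with Alas2 was 0.68 for beta and 0.61 for alpha globin.

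**Figure D4:**
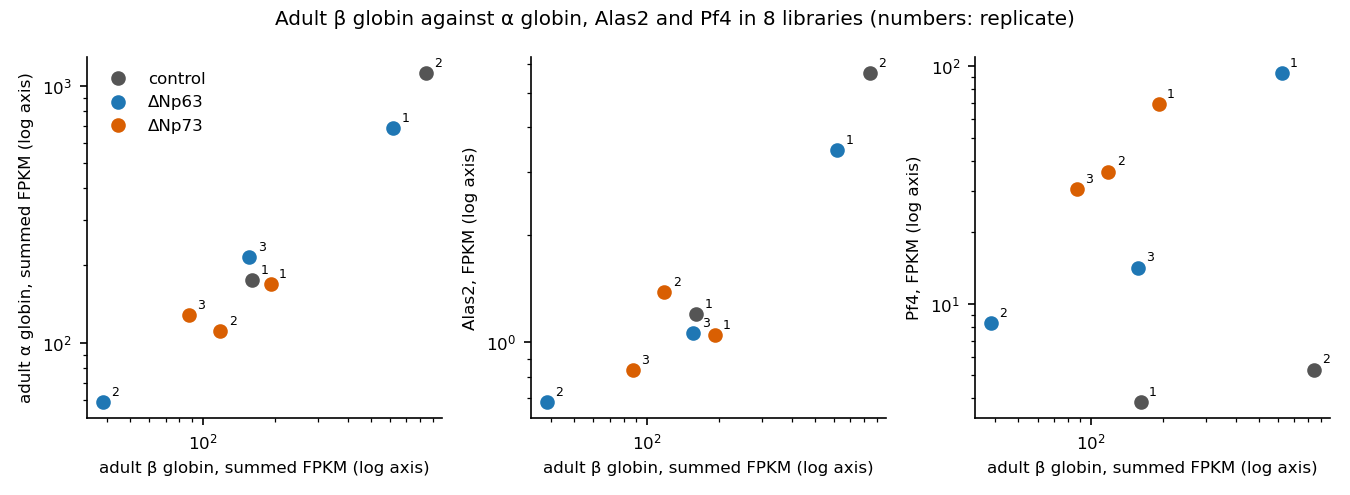
Summed adult beta globin FPKM (horizontal log axis) against summed adult alpha globin, Alas2 and Pf4 (vertical log axes, FPKM) in the 8 libraries, with replicate numbers. Alpha and beta globin lie along a line (r = 0.98) with control replicate 2 and ΔNp63Δ/Δ replicate 1 at the top, while Pf4 shows no such order (r = 0.13) and is lowest in the 2 controls.

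The genes whose levels were most like each of the 6 over the 8 libraries are a description, chosen as the highest of 12921. They were Tfap2a (r = 0.97), NR_003292 and Svip for Hbb-b1, Gm6710 (r = 0.96), Bcat2 and Mark2 for Hbb-b2, and Acsm3 (r = 0.96), Tradd and Tfb2m for Hba-a1. For Alas2 they were Tmem170 (r = 0.95), Beta-s (r = 0.92) and Lect1, and for Ppbp NR_030720 (r = 0.93), Tmem54 and Rab38. For Pf4 they were Creg1 (r = 0.99, rho = 1.0), NR_027984 and NR_028591. Creg1 was at 8.30 and 9.34 FPKM in the control libraries and at 11.5 to 19.3 in the other libraries. None of these 18 was in the globin, platelet, haem or erythroid lists; Beta-s is a globin entry that the lists do not hold.

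Upstream sequence is shown for the globins, whose sums varied together, and for the neighbours Pf4 and Ppbp. Each is the 250 bases before the RefSeq gene start (GRCm38.p6), written 5′ to 3′ on the strand of the gene; the alpha globin sequence is that of Hba-a2, of which a run of 247 bases is shared with Hba-a1. Capitals mark matches, on either strand, to GATAA (the core bound by GATA factors), CACCC (bound by KLF factors), CCAAT and TATAAA; neighbouring matches may touch or overlap.

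Hba-a2, chr11:32296242-32296491, plus strand: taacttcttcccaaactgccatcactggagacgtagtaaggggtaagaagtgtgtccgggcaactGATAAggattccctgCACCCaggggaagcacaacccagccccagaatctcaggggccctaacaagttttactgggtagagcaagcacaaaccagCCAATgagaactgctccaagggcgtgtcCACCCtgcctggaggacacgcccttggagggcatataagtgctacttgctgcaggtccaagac
Hbb-bs, chr7:103827929-103828178, minus strand: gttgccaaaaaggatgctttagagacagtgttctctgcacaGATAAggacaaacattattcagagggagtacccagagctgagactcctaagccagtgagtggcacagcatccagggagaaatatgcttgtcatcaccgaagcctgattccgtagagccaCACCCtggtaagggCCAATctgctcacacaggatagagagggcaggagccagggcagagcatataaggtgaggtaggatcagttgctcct
Pf4, chr5:90772185-90772434, plus strand: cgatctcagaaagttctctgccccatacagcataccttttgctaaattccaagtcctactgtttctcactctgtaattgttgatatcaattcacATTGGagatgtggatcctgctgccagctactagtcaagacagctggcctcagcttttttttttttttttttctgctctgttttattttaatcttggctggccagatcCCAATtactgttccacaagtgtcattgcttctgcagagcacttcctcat
Ppbp, chr5:90768268-90768517, plus strand: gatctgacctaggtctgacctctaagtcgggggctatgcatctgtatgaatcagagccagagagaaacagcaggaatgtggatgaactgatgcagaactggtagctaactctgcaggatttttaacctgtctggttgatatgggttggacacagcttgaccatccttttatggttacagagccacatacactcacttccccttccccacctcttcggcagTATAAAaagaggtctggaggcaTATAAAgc

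GATAA occurred 1 time in each of the windows of Hba-a1, Hba-a2, Hbb-bs, Hbb-bt and Alas2, and 0 times in those of Pf4, Ppbp and Itga2b; 23.02% of 27025 windows of that length hold it. CACCC occurred 2 times in the alpha globin windows, 1 time in Hbb-bs and 3 times in Hbb-bt and in Alas2, and 0 times in the platelet genes (51.3% of all windows hold it). CCAAT occurred in the globin windows and 2 times in Pf4 (34.46% of all windows), and TATAAA 2 times in Ppbp, 1 time in Hbb-bt and 1 time in Alas2 (12.97%). A match is a description of these letters and not a site. No sequence of the entry called Hbb-b2 was used here.

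Other genes of the same cells and pathways were read from lists chosen with earlier results known. Over all libraries, 0 of their genes passed the threshold in any comparison. The 13 haem synthesis genes had a median log2 fold change of 0.01 in the ΔNp63Δ/Δ and -0.14 in the ΔNp73Δ/Δ group against control, where all genes had -0.02 and -0.07. Alas1, the form of the enzyme found in all tissues, was at 13.85 and 13.86 FPKM in the control libraries, 19.6, 12.2 and 31.6 in the ΔNp63Δ/Δ and 33.6, 24.8 and 24.5 in the ΔNp73Δ/Δ libraries, where it lay above both controls. Of all genes, 63.4% did not overlap in that comparison. For the 7 red cell membrane genes tested the medians were 0.22 and 0.07, and for 13 erythroid regulators and late erythroid genes -0.05 and -0.00. Without ΔNp63Δ/Δ replicate 2, the medians of these 3 lists in the ΔNp63Δ/Δ group were -0.11, 0.13 and 0.24. The genes that passed then were 0 as higher and 2 as lower, 1 and 2, and 3 and 2, where 22.5% of all genes passed in either direction. In the ΔNp73Δ/Δ group they were 1 as higher and 0 as lower, 2 and 1, and 4 and 3, where 33% of all genes passed. The red cell genes Slc4a1, Klf1, Gata1 and Ahsp were not analysed here. Hemgn, a nuclear protein of red cell precursors, was at 3.17 and 3.27 FPKM in the control libraries and at 10.3 in ΔNp63Δ/Δ replicate 2, where summed globin was lowest. It was at 0.0981 to 0.467 in the 5 other libraries. Tfrc, the transferrin receptor, was at 122 FPKM in ΔNp63Δ/Δ replicate 2 and at 8.61 to 19.3 in the others.

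Of 16 platelet granule genes tested, Pf4 and Ppbp included, 12 had a positive log2 fold change in the ΔNp63Δ/Δ group (median 0.28) and 15 in the ΔNp73Δ/Δ group (median 0.76) against control. Over all genes the medians were -0.02 and -0.07. The part of cells other than platelets in the levels of this list was not tested. Sparc, a matrix protein also made by stromal cells, was at 35.3 and 42.9 FPKM in the control libraries and at 49.1 to 154 in the other 6 libraries. Thbs1, which encodes thrombospondin, was at 0.753 and 0.970 FPKM in the control libraries and at 1.39 to 19.0 in the other 6. F13a1, which encodes a subunit of coagulation factor XIII, was lower in all 6, at 41.9 and 50.8 FPKM in the control libraries against 8.30 to 31.1. For 14 platelet surface receptors the medians were -0.02 and 0.44, and for 24 platelet cytoskeleton, signalling and regulator genes 0.01 and 0.37. Several of the latter, such as Lat at 147 to 304 FPKM, are also T cell genes. Itgb3, the partner of Itga2b, was at 4.04 to 6.50 FPKM with overlapping groups. Clec1b, a receptor of platelets, was at 1.11 and 1.50 FPKM in the control libraries and at 2.02 to 5.10 in the other 6 libraries. The thromboxane receptor gene Tbxa2r was lower in all 6 (8.79 and 10.3 against 5.29 to 7.77 FPKM), as was Slamf1 (21.3 and 20.5 against 4.21 to 18.4 FPKM). Of all genes, 30.3% did not overlap between the ΔNp63Δ/Δ group and control, and 63.4% between the ΔNp73Δ/Δ group and control. Thbs1, F13a1, Clec1b, Tbxa2r and Itgb3 were chosen after their values were seen, so their separation from the controls is a description only. Gp1ba, Gp9, Gp6 and Tubb1 were not analysed here.

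Without ΔNp63Δ/Δ replicate 2, 8 of 15 granule genes passed as higher in the ΔNp63Δ/Δ group (median 0.67, where 22.5% of all genes passed in either direction). In the ΔNp73Δ/Δ group 11 of 15 passed as higher and 1 as lower (median 0.80, against 33% of all genes). Of the 14 surface receptors, 5 passed as higher and 0 as lower in the ΔNp63Δ/Δ group (median 0.22), and 7 as higher and 4 as lower in the ΔNp73Δ/Δ group (median 0.44). Of the 24 cytoskeleton, signalling and regulator genes, 6 passed as higher and 0 as lower (median 0.06), and 9 and 3 (median 0.37). Of the 13 macrophage markers, 12 and 13 passed as higher (medians 1.45 and 1.57).

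Macrophage markers, like Pf4, were lower in the control libraries than in most others. All 13 macrophage markers had a positive log2 fold change in both groups against control (medians 1.06 and 1.57). Their summed FPKM was 425 to 483 in the control libraries, 469 to 1269 in the ΔNp63Δ/Δ and 1162 to 1578 in the ΔNp73Δ/Δ libraries. Lyz2, the most abundant of them, was at 169 and 199 FPKM in the control libraries, 377, 151 and 412 in the ΔNp63Δ/Δ and 521, 430 and 394 in the ΔNp73Δ/Δ libraries. The 11 neutrophil markers, with medians of -0.18 and 1.70, summed to 175 to 680, 56.6 to 778 and 947 to 1588 FPKM, and the 12 endothelial markers, with medians of 0.43 and 0.70, to 32.1 to 40.8, 43.8 to 57.4 and 52.4 to 91.0 FPKM. Without ΔNp63Δ/Δ replicate 2, the neutrophil median in the ΔNp63Δ/Δ group was 0.97, with 9 of 11 above 0. Of the 11, 3 passed as higher, where 22.5% of all genes passed in either direction. In the ΔNp73Δ/Δ group 6 of 11 passed as higher, where 33% of all genes passed. In ΔNp63Δ/Δ replicate 1, Pf4 was 93.4 FPKM beside a macrophage sum of 1180, and in replicate 3 it was 14.2 beside 1269. The part of these cells in the levels of Pf4 was not tested.

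Genes for clearing haemoglobin and recycling iron had a median log2 fold change of 0.63 in the ΔNp63Δ/Δ and 1.005 in the ΔNp73Δ/Δ group, and 14 and 15 of the 15 tested were above 0. Hmox1, which breaks down haem, was at 11.4 and 11.9 FPKM in the control libraries. It was at 150, 12.9 and 31.2 in the ΔNp63Δ/Δ and at 54.6, 66.0 and 52.0 in the ΔNp73Δ/Δ libraries, all above both controls. Hmox1 was chosen after its values were seen, and 30.3% and 63.4% of all genes did not overlap in these comparisons. Hp, the plasma protein haptoglobin that binds free haemoglobin, was at 4.68 and 16.2 FPKM in the control libraries, 482, 14.0 and 346 in the ΔNp63Δ/Δ and 592, 47.9 and 55.4 in the ΔNp73Δ/Δ libraries. The libraries highest in summed globin were control replicate 2 and ΔNp63Δ/Δ replicate 1, and of these only the latter was high in Hmox1 and Hp. Macrophages express several genes of this list, and the part of these cells in its values was not tested.

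**Figure D5:**
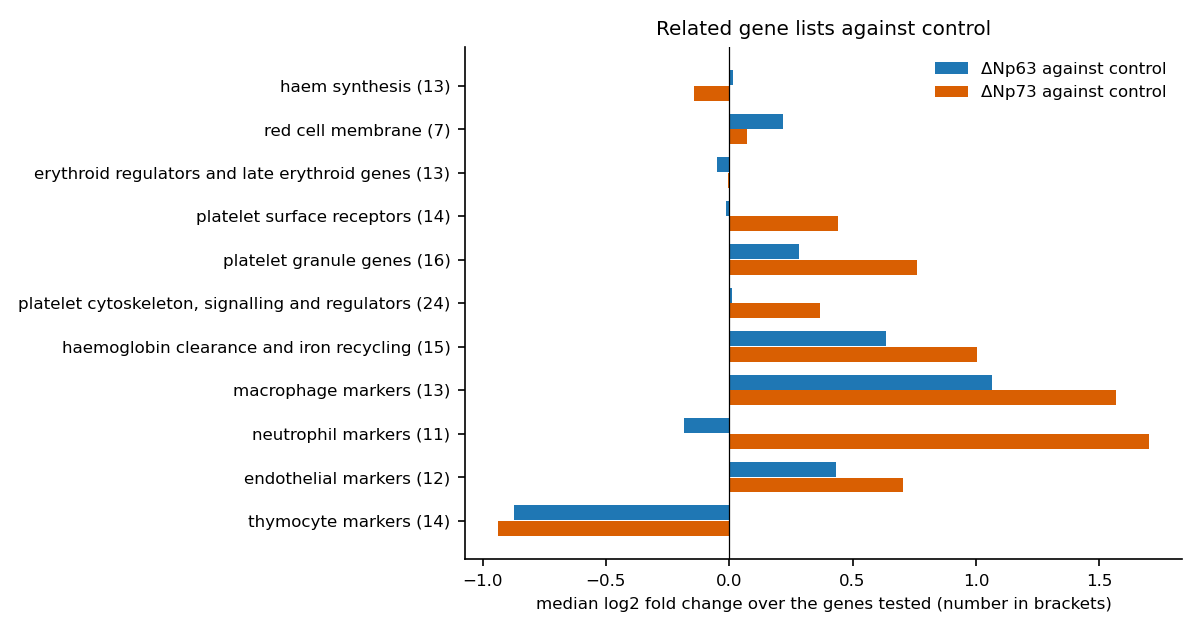
Median log2 fold change on the log2(FPKM + 1) scale against control of related gene lists, with the number of genes tested in brackets, for the ΔNp63Δ/Δ (blue) and ΔNp73Δ/Δ (orange) groups. The haem synthesis, red cell membrane and erythroid lists lie between -0.14 and 0.22, while the macrophage list is at 1.06 and 1.57 and the thymocyte list at -0.87 and -0.94; 0 of the genes passed the threshold over all libraries.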

How the data were processed

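The authors deposited 1 table of FPKM per RefSeq transcript, quantile-normalised over the 8 libraries according to its name. TopHat2 2.0, Cufflinks 2.0 and the mouse build mm9 are named in the submitters' processing notes, with no role given for either tool. Quantile normalisation gives the libraries a common distribution, so a change in total RNA cannot be seen, and the table holds no counts, so depth and counting error are unknown. The table has 16589 entries under 13681 symbols; 35 symbols turned into dates were restored through the RefSeq identifier.

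The entry with the highest mean per symbol was kept, and genes reaching an FPKM of 1 in 2 or more libraries entered the test. The test was limma 3.58.1 (R 4.3.3) on log2(FPKM + 1) (linear model of the 3 groups, empirical Bayes with intensity trend, two-sided, 5 residual degrees of freedom), with Benjamini-Hochberg adjustment over all genes tested; the script was tested on simulated data. Correlations used NumPy 2.4.6. Alternatives were a pseudocount of 0.1, no filter, summed entries, only the groups compared, array weights and leaving out each library. Summed globins were added after seeing the data. The genes and the 16 lists were chosen with earlier results of these data known. The genes named are the 7 of the set, the 3 most alike for each, and list genes past the threshold or among the 4 highest; Hmox1, Hemgn, Thbs1, Clec1b, F13a1, Tbxa2r and Itgb3 were chosen after their values were seen. Sequences are from RefSeq (GRCm38.p6) and GENCODE vM21 (GRCm38), whose coordinates were not mixed with mm9.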

Additional observations from a re-analysis of the deposited data

How the results depend on the processing

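None of the 18 comparisons of the 6 genes passed over all libraries, so no call could be lost. Of 234 values under alternatives, 12 newly passed in the same direction and 7 changed sign. The sign changes were in values that did not pass. Against control in the ΔNp63Δ/Δ group, Hba-a1 was at -0.39 without control replicate 1 and -0.64 without ΔNp63Δ/Δ replicate 1, Ppbp at -0.58 and -0.60 without the same libraries, and Alas2 at 0.18 without control replicate 2; leaving out each library gave -0.64 to 1.47, -0.60 to 0.83 and -1.42 to 0.18. Between the ΔNp73Δ/Δ and ΔNp63Δ/Δ groups, Pf4 was at -0.35 with array weights and Alas2 at 0.16 without ΔNp63Δ/Δ replicate 1 (-0.54 to 0.16 over the libraries left out). The number of the 6 genes past the threshold was 2, 4 and 2 with array weights in the ΔNp63Δ/Δ and ΔNp73Δ/Δ groups against control and between them. It was 1 in the ΔNp73Δ/Δ group (Pf4) with only the groups compared, and leaving out a library gave 0 to 2, 0 to 1 and 0 to 0. Of all genes, 4480, 6569 and 344 passed with array weights, 5 (ΔNp63Δ/Δ) and 3890 (ΔNp73Δ/Δ) with only the groups compared, 18 (ΔNp73Δ/Δ) with a pseudocount of 0.1, and 3 to 2882, 0 to 4212 and 6 to 19 when a library was left out; the cause was not tested, except that ΔNp63Δ/Δ replicate 2 gave the highest counts when left out. The count of 0 in the ΔNp73Δ/Δ group came from limma without either control (1066 and 1254 genes at an unadjusted p under 0.05). Of the 15 correlations, 0 passed with a pseudocount of 0.1 or without ΔNp63Δ/Δ replicate 2. Fold changes of Hbb-b2 and Hba-a1 depend on the pseudocount, since some libraries are close to 0: with 0.1, Hba-a1 in the ΔNp73Δ/Δ group was at -6.82. No paired analysis was possible because the labels carry no replicate numbers shared between groups.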
